A study of Mus musculus with 9 samples.

Results

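The CpGs on the shores of transcription start sites, from 1000 bp to under 2500 bp from the nearest annotated start, were followed through plasma cell differentiation in the mouse spleen. A CpG was a member when all 9 libraries covered it with 10 or more reads and it lay at that distance in the authors' annotation, so no methylation level entered the choice. The rule kept 26089 CpGs, 7.32% of the 356320 CpGs with that coverage and 41.5% of the 62828 CpGs deposited for the window. Of these, 9617 lay upstream of their start site, near 2469 genes, and 16472 lay downstream, near 3817 genes. A gene had a median of 3 shore CpGs and at most 48.

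The assay was reduced representation bisulfite sequencing: DNA is cut at CCGG by MspI, and unmethylated cytosines are read as thymine after bisulfite treatment. All mice were female C57Bl/6J, 10 weeks old, their spleens were the source of the cells, and each group had 3 libraries. The plasmablasts (B220mid CD138+) and the plasma cells (B220low CD138+) were sorted on day 3 after lipopolysaccharide (LPS), a bacterial agent that drives B cells to divide and secrete antibody. The naive B cells (B220+ CD43-) were sorted from untreated mice and served as their common reference. LPS treatment and differentiation therefore cannot be told apart, and cell types other than the sorted ones were not measured.

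In vertebrate genomes most CpGs are methylated, and start sites inside CpG islands are kept free of methylation. The shores flank these islands and carry the passage between the unmethylated start and the methylated surroundings. Dnmt1 copies methylation onto the new strand after each replication, while Tet enzymes oxidise it, so that dividing cells can lose it by either route. Plasma cell differentiation passes through several rapid divisions, is driven by Irf4, Prdm1 and Xbp1, and turns off much of the mature B cell program.

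The sequences around 4 start sites show what kinds of start the shores described here flank. Ptp4a2 and Tnfrsf13c are genes with large losses upstream and downstream, Irf4 is a factor that drives the program, and Hif3a is a gene with a gain. Each runs 5′ to 3′ on the gene's strand from 250 bases before to 50 after the RefSeq start in build GRCm38.p6, with CpGs in capitals; the shores themselves lie farther out, and their coordinates are given in mm9, the build of the deposited table.
Ptp4a2: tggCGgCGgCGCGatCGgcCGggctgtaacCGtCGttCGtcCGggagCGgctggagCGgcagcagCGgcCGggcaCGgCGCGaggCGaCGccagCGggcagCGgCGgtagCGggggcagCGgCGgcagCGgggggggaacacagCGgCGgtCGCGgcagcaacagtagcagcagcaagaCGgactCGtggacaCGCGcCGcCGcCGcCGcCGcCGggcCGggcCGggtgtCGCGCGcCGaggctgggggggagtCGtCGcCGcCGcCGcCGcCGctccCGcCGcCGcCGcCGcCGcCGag
Tnfrsf13c: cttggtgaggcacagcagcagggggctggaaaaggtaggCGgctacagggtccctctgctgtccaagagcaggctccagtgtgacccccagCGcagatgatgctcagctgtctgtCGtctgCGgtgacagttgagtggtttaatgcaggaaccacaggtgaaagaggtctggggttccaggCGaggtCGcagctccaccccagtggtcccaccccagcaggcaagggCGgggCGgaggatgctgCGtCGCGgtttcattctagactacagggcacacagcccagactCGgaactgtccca
Irf4: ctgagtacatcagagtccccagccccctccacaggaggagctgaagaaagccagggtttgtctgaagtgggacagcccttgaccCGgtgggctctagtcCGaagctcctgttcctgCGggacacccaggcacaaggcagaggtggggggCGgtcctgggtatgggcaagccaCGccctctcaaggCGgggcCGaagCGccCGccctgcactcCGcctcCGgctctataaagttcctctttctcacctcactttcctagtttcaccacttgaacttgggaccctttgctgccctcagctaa
Hif3a: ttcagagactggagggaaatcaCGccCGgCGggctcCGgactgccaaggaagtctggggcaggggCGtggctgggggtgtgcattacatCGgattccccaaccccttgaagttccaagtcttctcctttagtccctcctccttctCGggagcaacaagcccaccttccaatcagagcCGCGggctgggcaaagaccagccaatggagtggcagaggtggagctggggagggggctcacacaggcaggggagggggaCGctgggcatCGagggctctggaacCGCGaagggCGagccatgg

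The Ptp4a2 start (chr4:129820229-129820528, plus strand) held 60 CpGs, a number reached by 0.0731% of the 32851 promoters in the RefSeq table. The Tnfrsf13c start (chr15:82224331-82224630, minus strand) held 12, reached by 39.6%. The Irf4 start (chr13:30748983-30749282, plus strand) held 11, reached by 41.4%, and the Hif3a start (chr7:17062378-17062677, minus strand) held 14, reached by 36.3%. The median over the table was 7 CpGs. The motif counted was CG, which reads the same on both strands. The annotated start in mm9 may differ from the RefSeq start.

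The libraries held 16037172 to 29948088 reads over CpGs, with medians of 25 to 36 reads at a shore CpG, and reads were not marked by molecule, so limits from depth cover counting error only. At 72430 CpGs away from the shores that were nearly unmethylated (mean under 5%), the level was 2.68%, 6.08% and 2.07% in plasmablasts 1 to 3, 1.10%, 1.14% and 1.05% in plasma cells 1 to 3, and 0.718%, 3.10% and 2.61% in naive B cells 1 to 3. The plasma cell libraries and naive B library 1 thus formed a low set and the other 5 libraries a high set, and counts of calls in plasma cells are also given within the low set. Calls in plasmablasts within the high set, and calls from models that adjusted for set membership, are reported later among the other settings. What set the low and high libraries apart was not tested. No label ties a library to an animal. The p-values of level means and gene shores therefore measure the spread between libraries, which may be technical. Those of single CpGs rest on a dispersion shared by all CpGs (1.26), not on each CpG's own spread between libraries.

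Shore methylation was lower in both CD138+ populations than in naive B cells, on both sides of the start site. Averaged over CpGs, the upstream shores had 51.2%, 53.7% and 51.6% methylation in plasmablasts, 48.8%, 46.0% and 45.4% in plasma cells, and 58.0%, 60.5% and 60.3% in naive B cells. The downstream shores had 44.1%, 46.8% and 44.7% in plasmablasts, 41.6%, 39.1% and 38.7% in plasma cells, and 49.3%, 51.9% and 51.4% in naive B cells. On each side the naive B libraries were the 3 highest and the groups did not overlap.

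In plasma cells the upstream shores averaged 46.7 ± 1.83%, against 59.6 ± 1.36% in naive B cells (SD, n = 3 each), a difference of -12.9 percentage points. The downstream shores averaged 39.8 ± 1.58% in plasma cells and 50.8 ± 1.40% in naive B cells, a difference of -11.0 points. As a share of the naive level, plasma cells had 21.6% less upstream and 21.7% less downstream. In plasmablasts the differences from naive B cells were -7.45 points upstream and -5.61 points downstream, or 12.5% and 11.0% of the naive level. Plasma cells differed from plasmablasts by -5.43 points upstream and -5.42 points downstream. The plasma cell libraries were all in the low set and the plasmablast libraries all in the high set. Stage and library set therefore cannot be told apart in this comparison.

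Every one of these differences had an exact two-sided permutation p of 0.1, the smallest that 3 against 3 libraries allow. All 168 values of these differences under the settings tried were below 0.

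**Figure D1:**
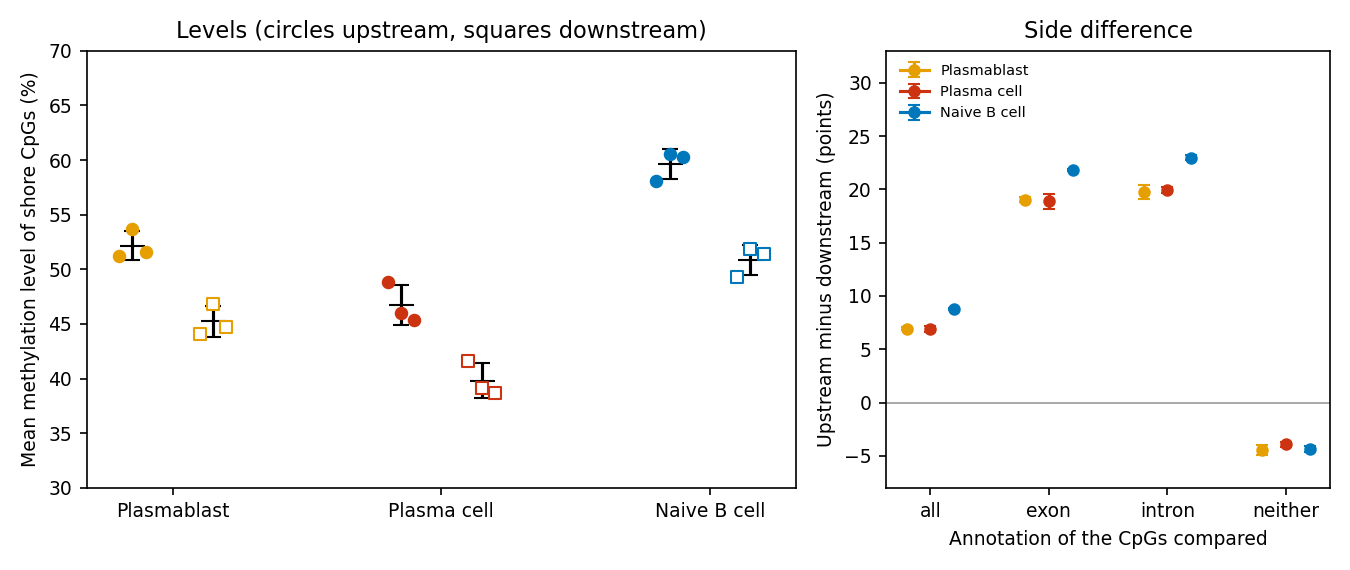
Mean methylation level of upstream (circles) and downstream (squares) shore CpGs in each library, and the difference between the sides as mean with SD over 3 libraries, for all shore CpGs and by the annotation of the CpG. The naive B libraries are highest on both sides; the side difference is near 20 points inside exons and introns and below 0 outside them.

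The zones on either side of the shores set the scale. CpGs within 1000 bp of a start averaged 15.7 ± 2.05% in plasmablasts, 11.7 ± 0.586% in plasma cells and 15.8 ± 1.55% in naive B cells (SD, n = 3 each). From 2500 bp to under 5000 bp, plasma cells differed from naive B cells by -14.4 points and plasmablasts by -8.99 points. Over all tested CpGs the differences were -12.6 and -7.62 points. The shore differences thus lay between those of the start sites and of the flanking sequence. At the start sites plasmablasts differed from naive B cells by -0.176 points (exact permutation p = 1).

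Methylation climbed across the shore on both sides. In the first 250 bp, from 1000 to 1249 bp upstream, 2390 CpGs averaged 42.4% in plasmablasts, 37.4% in plasma cells and 47.7% in naive B cells. In the last 250 bp of the window upstream, 1218 CpGs averaged 59.0% in plasmablasts, 53.2% in plasma cells and 68.4% in naive B cells. Downstream, the 4540 CpGs of the near bin averaged 32.6% in plasmablasts, 27.3% in plasma cells and 36.0% in naive B cells, while the 1860 CpGs of the far bin averaged 59.1% in plasmablasts, 53.5% in plasma cells and 67.4% in naive B cells. The sides thus differed at the near edge and met at the far edge. Across the 6 bins of each side, plasma cells had 20.4 to 22.3% less than the naive level upstream and 19.8 to 24.0% less downstream.

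The inner limit of the window fell on a slope. Across the outer limit the means of 250 bp bins hardly changed. In naive B cells they were 68.4% inside and 68.3% outside upstream, and 67.4% and 67.3% downstream. Upstream, the CpGs at 950 to 999 bp, just outside, averaged 38.5% in plasmablasts, 33.2% in plasma cells and 43.3% in naive B cells, and those at 1000 to 1049 bp, just inside, 41.4% in plasmablasts, 36.0% in plasma cells and 46.8% in naive B cells. At the outer limit the upstream CpGs in the last 50 bp inside the window averaged 62.1% in plasmablasts, 56.5% in plasma cells and 71.9% in naive B cells, and those at 2500 to 2549 bp 57.3% in plasmablasts, 51.3% in plasma cells and 67.3% in naive B cells. Downstream, CpGs at 950 to 999 bp averaged 26.7% in plasmablasts, 21.9% in plasma cells and 28.9% in naive B cells, and those at 1000 to 1049 bp 28.3% in plasmablasts, 23.3% in plasma cells and 31.1% in naive B cells. At the outer limit downstream, the last 50 bp inside averaged 59.96% in plasmablasts, 54.4% in plasma cells and 68.7% in naive B cells, and the 50 bp beyond it 58.6% in plasmablasts, 54.1% in plasma cells and 66.7% in naive B cells. On both sides levels were higher inside than outside at either limit.

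**Figure D2:**
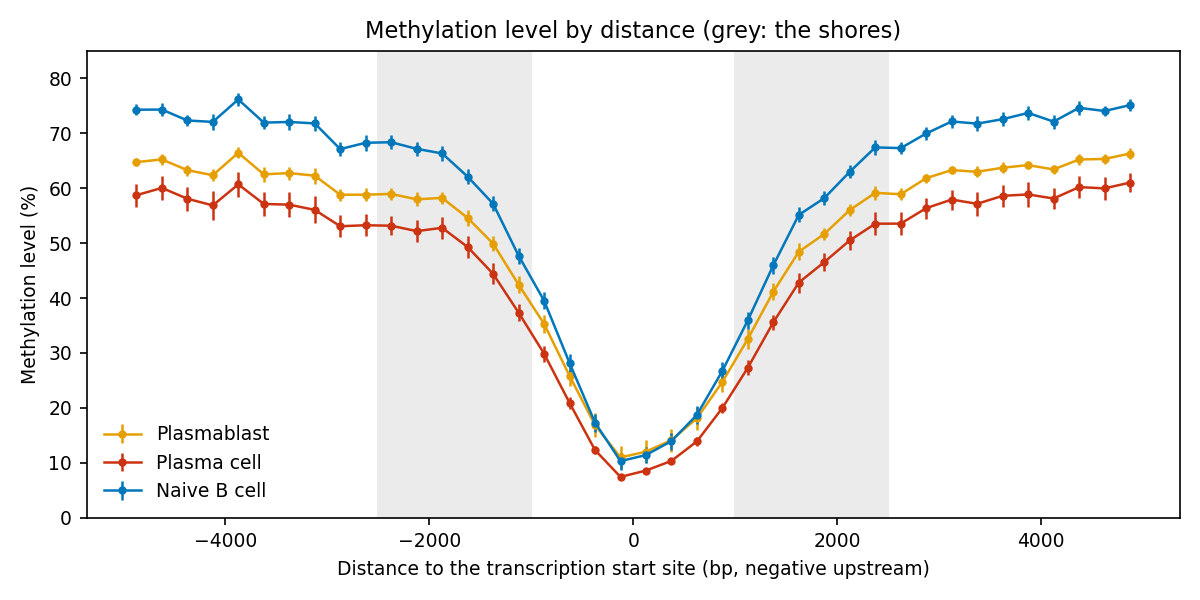
Mean methylation level (%) in bins of 250 bp against distance to the nearest start site (bp, negative upstream), as mean with SD over 3 libraries per group; grey bands are the shores. The curves rise on both shores, the upstream side starting higher at 1000 bp (47.7% against 36.0% in naive B cells).

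Upstream shores were more methylated than downstream shores in every library. The difference, upstream minus downstream, was 7.06, 6.82 and 6.88 points in plasmablasts, 7.19, 6.85 and 6.69 points in plasma cells, and 8.79, 8.67 and 8.85 points in naive B cells. It averaged 7.53 points over the 9 libraries and was positive in 9 of 9 (exact sign-flip test, two-sided, p = 0.0039, the smallest 9 libraries allow). The naive B libraries had the 3 largest values, and the CD138+ groups overlapped each other.

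The side difference narrowed in both CD138+ populations, to 6.92 ± 0.127 points in plasmablasts and 6.91 ± 0.252 points in plasma cells, against 8.77 ± 0.0933 points in naive B cells (SD, n = 3 each). The change was -1.85 points in plasmablasts and -1.86 points in plasma cells, each with an exact permutation p of 0.1. Plasma cells and plasmablasts differed by -0.0129 points (exact permutation p = 0.9), a value whose sign turned under several settings. In proportion the sides kept their relation in plasma cells. The downstream level was 85.2 ± 0.0875% of the upstream level in plasma cells and 85.3 ± 0.416% in naive B cells (exact permutation p = 0.7), and 86.7 ± 0.547% in plasmablasts.

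The upstream excess was found at CpGs inside annotated genes, a split chosen after the levels were seen. In exons, 1110 upstream CpGs averaged 67.4% in plasmablasts, 62.6% in plasma cells and 74.8% in naive B cells, and 5745 downstream CpGs 48.4% in plasmablasts, 43.7% in plasma cells and 53.0% in naive B cells. In introns, 2257 upstream CpGs averaged 62.6% in plasmablasts, 57.0% in plasma cells and 71.8% in naive B cells, and 9672 downstream CpGs 42.8% in plasmablasts, 37.0% in plasma cells and 48.9% in naive B cells. The exon or intron that holds an upstream CpG belongs to another transcript than the one that begins at that start.

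Outside exons and introns the order turned round. There 6250 upstream CpGs averaged 45.7% in plasmablasts, 40.2% in plasma cells and 52.5% in naive B cells, and 1055 downstream CpGs 50.2% in plasmablasts, 44.1% in plasma cells and 56.9% in naive B cells. The difference was -4.49 ± 0.471 points in plasmablasts, -3.93 ± 0.217 points in plasma cells and -4.37 ± 0.249 points in naive B cells (SD, n = 3 each), positive in 0 of 9 libraries (exact sign-flip p = 0.0039). Upstream CpGs outside genes set against downstream CpGs inside genes, the plain case of a single gene, differed by 0.789 ± 0.159 points in plasmablasts, 0.685 ± 0.221 points in plasma cells and 2.06 ± 0.116 points in naive B cells. The side difference of 7.53 points was 1.18 points in that comparison, still positive in 9 of 9 libraries (exact sign-flip p = 0.0039).

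The side difference narrowed inside genes by more points than outside them, a contrast that was not tested. In exons the side difference changed by -2.76 points in plasmablasts and by -2.90 points in plasma cells against naive B cells, and in introns by -3.22 and -3.03 points, each with an exact permutation p of 0.1. Outside genes it changed by -0.124 points in plasmablasts (exact permutation p = 0.9) and by 0.438 points in plasma cells (exact permutation p = 0.1). Between upstream CpGs outside genes and downstream CpGs inside them it changed by -1.27 points in plasmablasts and by -1.38 points in plasma cells (exact permutation p = 0.1 each). As a share of the naive level, plasma cells had 16.4% less in upstream exons, 20.7% less in upstream introns and 23.4% less upstream of genes, and 17.6%, 24.2% and 22.4% less in the same classes downstream.

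Among genes that could be classed, the methylation of the start site itself also went with the side difference. Of the genes with at least 5 tested CpGs within 1000 bp, 1680 had a start under 10% in naive B cells, and the sides of their shores differed by 6.85 points in plasmablasts, 6.79 points in plasma cells and 8.17 points in naive B cells. In the 753 genes with a start at 10 to 50%, the sides differed by 2.38 points in plasmablasts, 2.46 points in plasma cells and 4.63 points in naive B cells. In the 285 genes with a start at 50% or more, they differed by -0.805 points in plasmablasts, -0.909 points in plasma cells and 0.826 points in naive B cells, positive in 3 of 9 libraries (exact sign-flip p = 0.324). A further 2790 genes had too few CpGs at the start to be classed. With the CpGs without a gene name they held 49.3% of shore CpGs. Their upstream shores averaged 59.5% in plasmablasts, 53.9% in plasma cells and 68.3% in naive B cells. Their downstream shores averaged 51.4% in plasmablasts, 45.7% in plasma cells and 58.2% in naive B cells.

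How far a shore CpG fell depended on where it began, with little difference between sides. CpGs were binned by naive B library 1, and the changes were taken against naive B libraries 2 and 3, so that the level that set the bin did not enter the change. Naive B library 1 belongs to the low set and libraries 2 and 3 to the high set. In plasma cells the change was -3.39 points upstream and -3.13 points downstream for CpGs that began under 20%, and -25.6 and -24.4 points for those that began at 60 to 80%. For CpGs at 95 to 100% it was -15.5 points upstream and -14.7 points downstream. In plasmablasts the same bins changed by 0.448 and 0.572 points, by -16.1 and -14.7 points, and by -11.1 and -10.2 points. The losses were largest among CpGs that began at 60 to 95%, and in every bin plasma cells fell farther than plasmablasts. The change of CpGs that began under 20% depended on the library used for the bins. With naive B library 2 it was -1.52 points upstream and -1.34 points downstream in plasma cells, and 2.09 and 2.13 points in plasmablasts. With that library the bin of 80 to 95% had the larger upstream loss in plasma cells, -23.1 points against -22.8 points at 60 to 80%. With both sides given the same mix of starting levels, the side difference changed by -0.496 points in plasma cells and by -0.614 points in plasmablasts (exact permutation p = 0.1 each, the smallest 3 against 2 libraries allow).

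**Figure D3:**
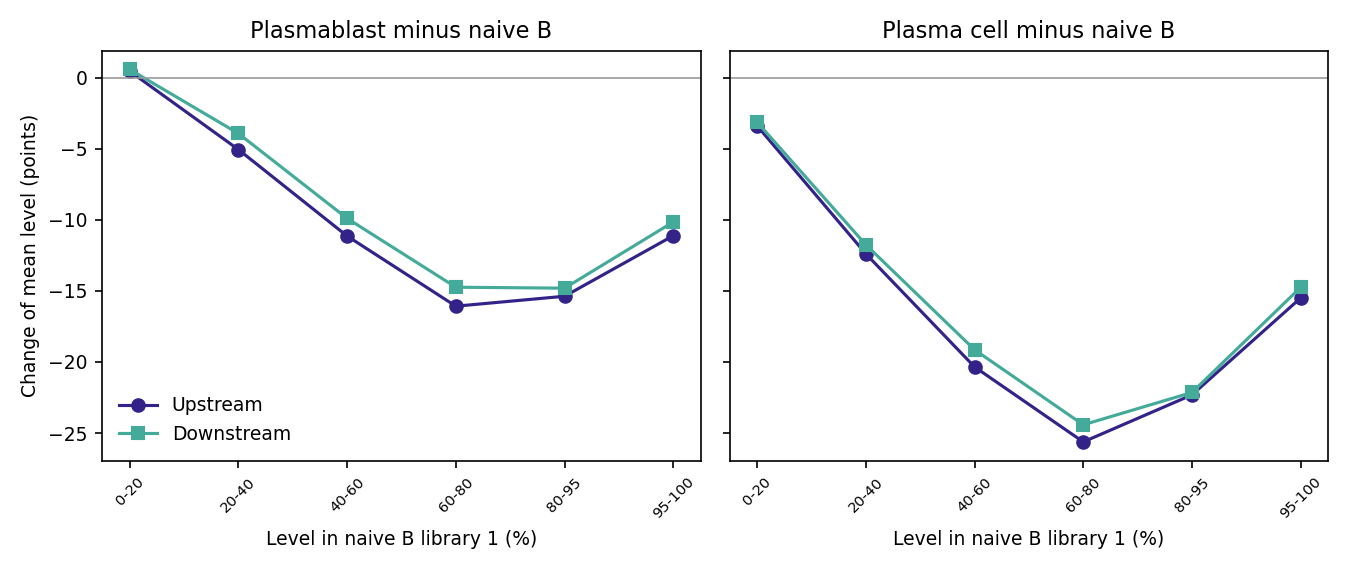
Change of the mean level in percentage points against naive B libraries 2 and 3, by the level in naive B library 1 (%), for upstream (circles) and downstream (squares) shore CpGs. The lines for the sides run close together, and with these bins the largest loss in plasma cells is at 60 to 80% (-25.6 points upstream and -24.4 points downstream).

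Fewer shore CpGs were fully methylated, and more held intermediate levels, in the CD138+ populations. Shares were taken in each library and averaged over 3. Upstream, 35.2% of CpGs had 80% or more in plasmablasts, 27.9% in plasma cells and 52.2% in naive B cells; downstream the shares were 29.5% in plasmablasts, 23.0% in plasma cells and 42.3% in naive B cells. Levels between 20 and 80% were held by 32.6% of upstream CpGs in plasmablasts, 35.9% in plasma cells and 16.2% in naive B cells, and by 31.7% of downstream CpGs in plasma cells and 17.5% in naive B cells. A CpG's SD between libraries had a median of 5.20 points in plasmablasts, 4.59 points in plasma cells and 3.49 points in naive B cells.

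Single CpGs were tested with a quasi-binomial logistic model and were called where the adjusted p was under 0.01 and the levels differed by 20 points or more. In plasma cells against naive B cells, 2185 upstream CpGs (22.7%) and 3047 downstream CpGs (18.5%) were lower, where 22.7% of all tested CpGs were. Only 6 upstream and 32 downstream CpGs were higher, where 0.0449% of all tested CpGs were. In plasmablasts against naive B cells, 1023 upstream CpGs (10.6%) and 1271 downstream CpGs (7.72%) were lower, against 10.6% of all tested CpGs, and 3 upstream and 36 downstream CpGs were higher, against 0.0665%. In plasma cells against plasmablasts, 87 upstream CpGs (0.905%) and 150 downstream CpGs (0.911%) were lower, against 0.619% of all tested CpGs, and 0 upstream and 1 downstream were higher, against 0.000842% of all tested CpGs. The last counts were the least stable: without plasmablast 2, plasmablast 3, plasma cell 2 or plasma cell 3 they were 19, 39, 31 and 18 upstream and 47, 72, 67 and 45 downstream. The 39 gains in plasmablasts became 63 without plasmablast 1 and 21 without naive B 1, and the 38 gains in plasma cells 25 without naive B 1.

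In both comparisons with naive B cells the upstream shares of lower CpGs were at the background and the downstream shares below it, while in plasma cells against plasmablasts both were above it. In plasma cells against naive B cells the sides were closer among CpGs with room to fall. The starting level here was the naive B level that also entered the call. The minimum of 20 points therefore barred CpGs that began under 20%. Of upstream CpGs that began at 20% or more, 33.4% of 6536 were called lower in plasma cells, against 31.2% of 9754 downstream and 32.7% over all tested CpGs. By starting level, 44.2% of upstream and 46.2% of downstream CpGs at 60 to 80% were called. At 80 to 95% the shares were 51.5% upstream and 49.1% downstream, and at 95 to 100% they were 25.2% and 23.1%. In plasmablasts, 15.7% of upstream and 13.0% of downstream CpGs with room were called lower, against 15.3% over all tested CpGs.

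These calls were fewer in a subset of the libraries and where the spread was counted otherwise. Within the low set of libraries, which has naive B library 1 alone, 1060 upstream (11.0%) and 1455 downstream CpGs (8.83%) were lower in plasma cells, where 10.6% of all tested CpGs were. An alternative added after seeing the data gave each CpG its own dispersion, moderated by limma toward a common value. The counts in plasma cells were then 1601 upstream (16.6%) and 2113 downstream (12.8%), where 16.3% of all tested CpGs were lower. In plasmablasts that model gave 247 upstream (2.57%) and 315 downstream (1.91%), against 2.39% of all tested CpGs. In plasma cells against plasmablasts it gave 0 on either side and 0 over all tested CpGs. At an unadjusted p under 0.05 that comparison held 1647 upstream and 2825 downstream CpGs, and the share over all tested CpGs was not taken. In the authors' deposited table of differential CpGs, 1502 upstream (15.6%) and 2015 downstream shore CpGs (12.2%) were listed for plasma cells, against 15.3% of all tested CpGs.

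Genes were compared next, with the reads of a gene's CpGs on the same side summed where at least 5 were tested, called at an adjusted p under 0.01 and at least 5 points. There were 574 upstream and 1137 downstream gene shores. CpGs around different annotated starts of a gene were pooled, as at Dnmt1, Prdm1, Zap70, Fcgr1, Gata2, Gata4 and Tbx1. In plasma cells against naive B cells, 276 upstream (48.1%) and 488 downstream gene shores (42.9%) were lower and 2 were higher, where 57.5% of all 22007 gene zones were lower and 0.0182% higher. In plasmablasts against naive B cells, 159 upstream (27.7%) and 240 downstream gene shores (21.1%) were lower and 4 downstream were higher, where 39.7% of all zones were lower and 0.0863% higher. The median change in plasma cells was -8.93 points upstream and -7.41 points downstream, against -11.8 points over all zones. Within the low set of libraries, 82 upstream (14.3%) and 152 downstream gene shores (13.4%) were lower in plasma cells, where 30.8% of all zones were. In plasma cells against plasmablasts, 2 gene shores were lower, Tnfaip8 and Ano6, both upstream, where 0.368% of all zones were. At an unadjusted p under 0.05, 238 of 574 upstream and 471 of 1137 downstream gene shores were lower, where 10902 of all 22007 zones were. That comparison turned on single libraries. Without plasma cell 1 it held 18 upstream and 59 downstream gene shores, without naive B 1 it held 31 and 90, and without naive B 3 or any plasmablast library, or without plasma cell 2 or 3, it held 0 upstream. The 240 downstream falls in plasmablasts became 159 without plasmablast 1 and 148 without naive B 2, and the 4 gains became 2 without plasmablast 2 and 7 without naive B 1.

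**Figure D4:**
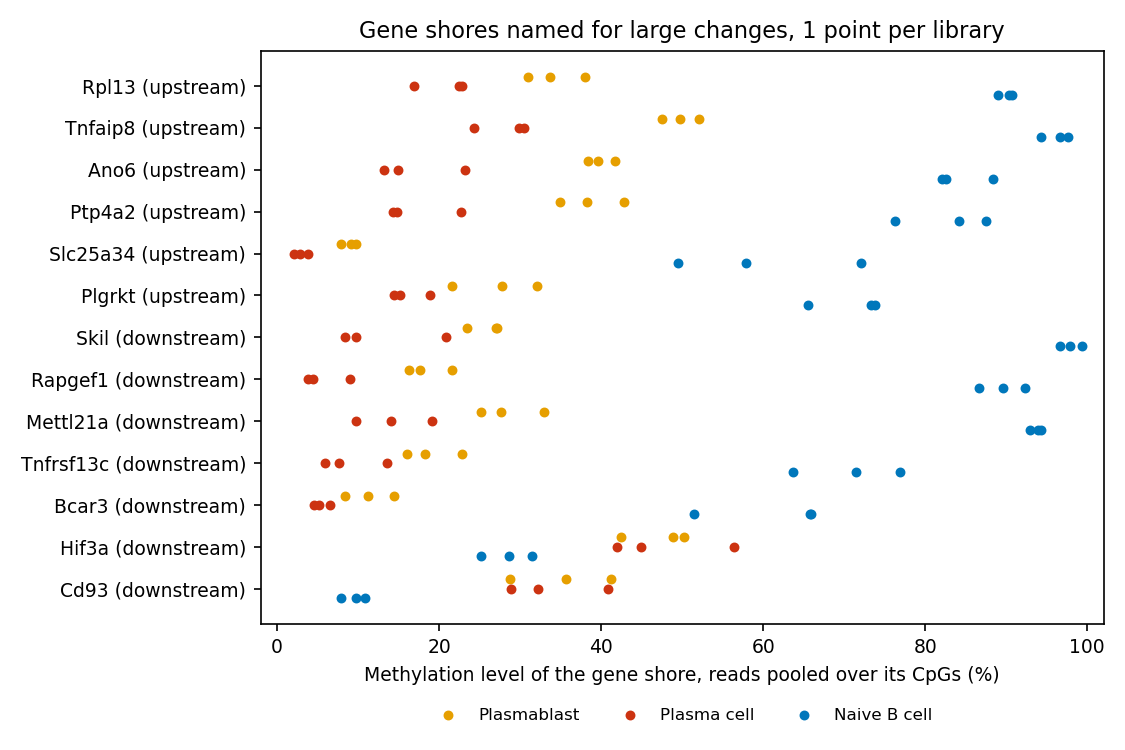
Methylation level (%) in each library of the gene shores named for large falls on each side and for gains, in plasma cells against naive B cells; each point is a library. In the shores that fell, plasma cells lie left of naive B cells without overlap; Cd93 and Hif3a lie right of them.

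The largest upstream fall was at Rpl13, a gene for a ribosomal protein, over 5 CpGs in no annotated exon or intron at chr8:125624453-125624706 (mm9). Its level was 31.0%, 33.7% and 38.1% in plasmablasts, 22.5%, 22.8% and 16.9% in plasma cells, and 90.3%, 90.7% and 89.0% in naive B cells. The 3 groups did not overlap, and plasma cells differed from naive B cells by -69.6 points (adjusted p = 1.8e-08, quasi-binomial model). At the start site itself, 6 CpGs averaged 0.947% in plasma cells and 2.55% in naive B cells.

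Tnfaip8, a TNF-induced regulator of cell death, fell over 8 intronic CpGs at chr18:50211474-50211911. It had 47.6%, 49.7% and 52.1% in plasmablasts, 29.9%, 24.3% and 30.5% in plasma cells, and 94.3%, 96.6% and 97.6% in naive B cells. All 3 groups were apart: plasma cells differed from naive B cells by -67.5 points (adjusted p = 6.8e-09) and from plasmablasts by -21.0 points (adjusted p = 0.0080). Ano6, a membrane phospholipid scramblase, fell over 9 CpGs at chr15:95619792-95620246, outside exons and introns. It had 39.6%, 41.7% and 38.3% in plasmablasts, 23.2%, 14.9% and 13.2% in plasma cells, and 82.5%, 82.0% and 88.3% in naive B cells. Plasma cells differed there from naive B cells by -66.7 points and from plasmablasts by -22.8 points (adjusted p = 0.0081).

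Ptp4a2, a protein tyrosine phosphatase whose CpG-dense start is printed above, fell over 7 CpGs at chr4:129495143-129495620. It had 42.9%, 38.3% and 34.9% in plasmablasts, 22.7%, 14.8% and 14.4% in plasma cells, and 76.3%, 87.5% and 84.1% in naive B cells, a difference of -65.8 points in plasma cells (adjusted p = 2.4e-08). The 14 CpGs within 1000 bp of the start averaged 0.746% in plasma cells and 1.40% in naive B cells, so the start had almost no room to fall. Slc25a34, of the mitochondrial carrier family, differed by -57.4 points and Plgrkt, a plasminogen receptor, by -55.2 points in plasma cells, both over 5 CpGs outside exons and introns.

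The largest fall on any shore was downstream at Skil, a repressor of Smad signalling, over 5 exonic CpGs at chr3:30996434-30996460. Its level was 27.2%, 27.0% and 23.5% in plasmablasts, 20.9%, 9.70% and 8.44% in plasma cells, and 97.8%, 99.4% and 96.7% in naive B cells, a difference of -85.8 points in plasma cells (adjusted p = 1.6e-08). These CpGs sit 2450 to 2476 bp from the start, at the outer edge of the window. Rapgef1, an exchange factor for the small GTPase Rap, fell over 6 intronic CpGs at chr2:29476788-29477027. It had 21.6%, 16.3% and 17.7% in plasmablasts, 8.97%, 4.40% and 3.83% in plasma cells, and 86.7%, 89.6% and 92.3% in naive B cells, a difference of -83.8 points in plasma cells (adjusted p = 6.8e-09). In both genes most of the fall was present in plasmablasts, at -72.3 points for Skil and -71.2 points for Rapgef1.

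Tnfrsf13c encodes the receptor for BAFF, on which mature B cells depend for survival. Its 7 exonic downstream CpGs at chr15:82053147-82053594 had 16.0%, 22.9% and 18.2% in plasmablasts, 13.5%, 5.93% and 7.71% in plasma cells, and 63.7%, 76.8% and 71.4% in naive B cells. The naive libraries stood apart from both other groups, and plasma cells differed from them by -60.6 points (adjusted p = 4.6e-08). Mettl21a, a protein lysine methyltransferase, differed by -79.2 points in plasma cells. Bcar3, an adaptor of integrin signalling, differed by -54.1 points in plasma cells, in introns.

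The 2 gene shores that gained methylation in plasma cells lay downstream. Cd93, a surface glycoprotein of early B cells and plasma cells, rose over 5 exonic CpGs at chr2:148267265-148267507. It had 28.7%, 41.2% and 35.7% in plasmablasts, 32.3%, 40.8% and 28.8% in plasma cells, and 9.70%, 10.8% and 7.94% in naive B cells, a difference of 23.4 points in plasma cells (adjusted p = 0.000185). Hif3a, a member of the hypoxia-inducible factor family, rose over 8 intronic CpGs at chr7:17646214-17646430. It had 50.2%, 48.9% and 42.4% in plasmablasts, 56.4%, 44.9% and 42.0% in plasma cells, and 25.1%, 28.7% and 31.4% in naive B cells, a difference of 20.2 points in plasma cells (adjusted p = 0.00038). At both genes plasmablasts and plasma cells overlapped each other and lay above naive B cells. Within the low set of libraries, where naive B library 1 stands alone, neither gain passed the test (adjusted p = 0.016 for Cd93 and 0.013 for Hif3a).

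Among genes with higher single CpGs, Egr3 had the most over both comparisons and was picked after its values were seen. Egr3, an early growth response factor induced by antigen receptor signals, had 4 higher CpGs in both comparisons, 1019 to 1171 bp downstream on chromosome 14. The CpG at 1171 bp (chr14:70479718-70479718) had 62.2%, 63.8% and 57.5% in plasmablasts, 51.2%, 43.1% and 52.0% in plasma cells, and 9.20%, 38.9% and 8.33% in naive B cells, with naive B library 2 well above its group.

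The shores of the same gene could be compared in 115 genes with at least 5 tested CpGs on each side. In these, upstream shores averaged 36.7% and downstream shores 38.7% in plasmablasts, 30.9% and 32.5% in plasma cells, and 40.3% and 43.1% in naive B cells. The upstream shore was the higher in 57 genes in plasmablasts, 59 in plasma cells and 56 in naive B cells, so these genes did not show the upstream excess of the CpG averages. Of the 115 genes, 53 had all their shore CpGs assigned to a single annotated start; in the others a shore can pool CpGs around several starts.

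The change differed between the shores of 10 genes (8.7% of the 115 tested) in plasma cells against naive B cells, at an adjusted p under 0.05 for side by group, 5 with more loss upstream and 5 downstream on the log-odds scale. In plasmablasts it differed in 20 genes (17.4%), 8 and 12. In plasma cells against plasmablasts the quasi-binomial model called 0 genes, with 11 at an unadjusted p under 0.05 and 2 by limma on unweighted means. Of the 10 genes, 2 had a single annotated start, Skil and Gp1bb. Leaving out single libraries gave 4 to 17 genes in plasma cells: 6 without plasmablast 3, 5 without plasma cell 1, 17 without naive B 1, 4 without naive B 2 and 5 without naive B 3. In plasmablasts the lowest was 13, without plasmablast 2.

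Skil was called with its large fall on the downstream shore. Against the fall of its downstream shore, the 8 upstream CpGs at chr3:30992784-30992883 had 3.30%, 4.64% and 1.97% in plasmablasts, 1.65%, 1.36% and 0.748% in plasma cells, and 0%, 1.97% and 2.52% in naive B cells, a difference of -0.346 points in plasma cells whose sign turned under 3 settings. The upstream shore was as low as the start site and had no room to fall, so a fall downstream alone could give the call. The adjusted p of side by group was 7.1e-05, and at most 0.0027 with any library left out. Chd5, a chromatin remodeller, differed the other way, with CpGs around 3 annotated starts pooled. Its 9 upstream CpGs had 53.2%, 53.0% and 62.0% in plasmablasts, 37.5%, 33.6% and 34.4% in plasma cells, and 81.2%, 88.7% and 88.7% in naive B cells.

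The 16 downstream CpGs of Chd5 had 75.2%, 80.8% and 82.5% in plasmablasts, 75.7%, 74.7% and 69.6% in plasma cells, and 82.4%, 84.1% and 80.5% in naive B cells. The change in plasma cells was -50.6 points upstream and -9.34 points downstream (adjusted p = 1.0e-06 for side by group). Fgfr1, a fibroblast growth factor receptor, and Zmynd8, a reader of modified histones, were called on the log-odds scale while their changes in points were similar. Fgfr1 changed by -19.6 points upstream and -21.5 points downstream, and Zmynd8 by -20.6 and -16.6 points, both with 3 annotated starts, so in these the larger change in points was on the side with the smaller change in log odds. Within the low set the downstream change of Fgfr1 was -12.5 points and was not called (adjusted p = 0.25).

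The calls of Skil, Chd5 and Fgfr1 passed with any of the 9 libraries left out. Zmynd8 did not pass without naive B library 3 (adjusted p = 0.061), and Vsig8, an immunoglobulin-domain gene, not without plasma cell library 1 or naive B library 2. Pfdn4, a prefoldin subunit, did not pass under 3 of the 9 omissions, without plasma cell library 1, naive B library 2 or naive B library 3. Cdh23, a cadherin, and Esrrb, an orphan nuclear receptor, did not pass under 6 of 9 each, with adjusted p up to 0.25 and 0.109.

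**Figure D5:**
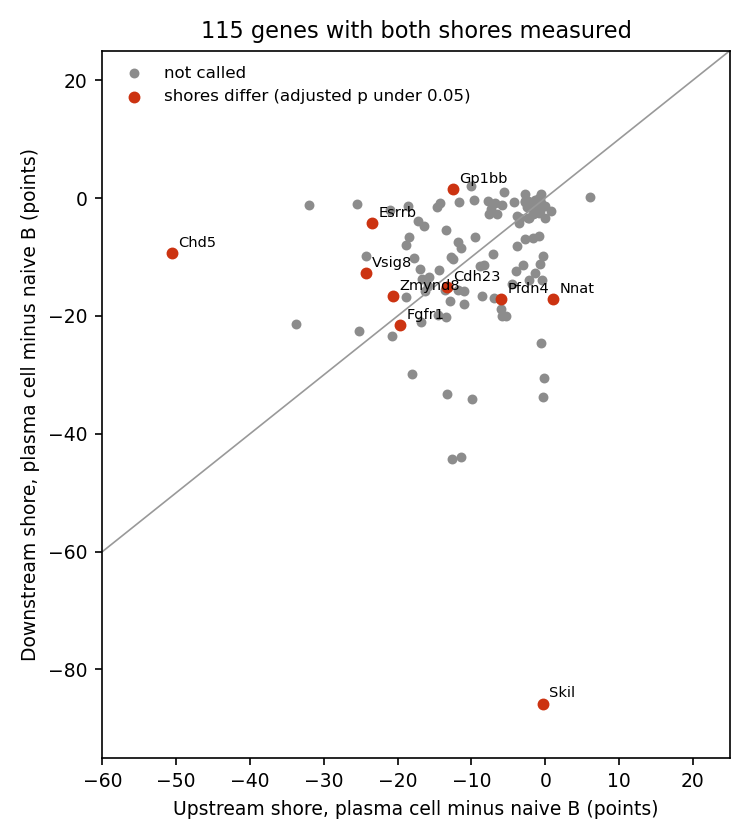
Change in plasma cells against naive B cells (percentage points) of the downstream shore against the upstream shore of the same gene, 115 genes; red points were called for side by group and the line marks equal change. Most genes lie near the line; Skil is far below it (-0.35 upstream, -85.8 downstream) and Chd5 far above it (-50.6 upstream, -9.34 downstream).

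Genes of the plasma cell program had 47 shore CpGs in 15 of 30 listed genes, and 8 of these CpGs (17.0%) were lower and 3 higher in plasma cells, where 4717 of 23917 CpGs with a gene name (19.7%) were lower. The 3 higher CpGs were at Cd93. Irf4 had 3 upstream CpGs outside exons and introns at chr13:30839747-30839973, with 6.92%, 8.52% and 10.3% in plasmablasts, 2.56%, 0% and 0.923% in plasma cells, and 37.1%, 51.2% and 49.7% in naive B cells. The naive libraries stood apart, and all 3 CpGs were called lower in plasma cells. Sdc1, which encodes CD138, the marker of the sort, had 4 intronic CpGs at chr12:8780288-8780482 with 75.7%, 69.4% and 66.7% in plasmablasts, 64.6%, 52.6% and 60.6% in plasma cells, and 88.1%, 87.1% and 84.7% in naive B cells, all 4 called lower in plasma cells.

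Tnfrsf13b, the receptor TACI, had a single CpG, which differed by -73.4 points in plasma cells. Prdm1, the repressor that closes the B cell program, had 10 downstream CpGs between 1.22 and 5.99% in all libraries. They spanned chr10:44176979-44247167, around more than a single annotated start. Their difference of -3.59 points in plasma cells did not reach 5 points. Bcl6, a germinal centre repressor, had 6 CpGs from 0 to 5.73%, and Ebf1, an early B cell factor, a single CpG. Xbp1, Pax5, Bach2, Ciita and Tet2 had no tested shore CpG.

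Of the genes of mature B cell identity, 15 of 35 had shore CpGs, 101 in all. In plasma cells 15 of these (14.9%) were lower and 0 higher, where 19.7% of shore CpGs with a gene name were lower. Blnk, the adaptor of B cell receptor signalling, had 42.2%, 45.9% and 36.2% in plasmablasts, 33.6%, 24.8% and 22.2% in plasma cells, and 74.8%, 78.1% and 75.2% in naive B cells over 5 upstream CpGs at chr19:41071167-41071455, a difference of -49.4 points in plasma cells (adjusted p = 6.1e-07). Klf2, a factor of lymphocyte trafficking, had 23.6%, 28.7% and 10.8% in plasmablasts, 8.72%, 9.73% and 3.47% in plasma cells, and 30.3%, 71.0% and 62.3% in naive B cells over 3 downstream CpGs, with naive B library 1 far below its group.

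Of the genes of TLR4 and NF-kB signalling, the pathway LPS acts through, 14 of 33 had shore CpGs. In plasma cells 8 of 62 CpGs (12.9%) were lower, where 19.7% of shore CpGs with a gene name were. The 4 higher CpGs were at Egr3. Ly86, a partner of the receptor Cd180, had 13.5%, 21.4% and 19.2% in plasmablasts, 11.3%, 3.36% and 4.52% in plasma cells, and 81.0%, 85.6% and 82.8% in naive B cells over 3 intronic CpGs. Il10, an anti-inflammatory cytokine, had 4 upstream CpGs that differed by -17.7 points in plasma cells and by -0.197 points in plasmablasts, and 2 downstream that differed by -30.4 and -23.6 points. Only 1 CpG of each Il10 shore was called in plasma cells.

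Of the genes for secretion and the unfolded protein response, on which antibody output depends, 9 of 43 had shore CpGs, all 24 of them downstream. In plasma cells 11 (45.8%) were lower, where 19.7% of shore CpGs with a gene name were. Of the 11, 5 lay together at Spcs2 and 2 at Creld2. Creld2, induced by endoplasmic reticulum stress, differed by -78.6 points over 2 CpGs. Spcs2, a subunit of the signal peptidase, had 23.0%, 47.9% and 27.2% in plasmablasts, 20.2%, 9.55% and 7.14% in plasma cells, and 48.6%, 66.3% and 50.7% in naive B cells over 5 intronic CpGs at chr7:107005088-107005280, a difference of -40.8 points in plasma cells (adjusted p = 3.2e-05). It was the list's only gene shore with 5 CpGs.

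Polycomb-bound developmental factors held many shore CpGs that were low from the start. Their 407 shore CpGs in 54 of 72 genes averaged 11.1% in plasmablasts, 6.82% in plasma cells and 10.9% in naive B cells. In plasma cells 15 (3.69%) were lower, where 19.7% of shore CpGs with a gene name were. Hoxb9, a homeobox factor, had 18.3%, 19.6% and 15.1% in plasmablasts, 12.8%, 8.75% and 8.88% in plasma cells, and 16.8%, 27.1% and 18.5% in naive B cells over 16 upstream CpGs, a difference of -10.4 points in plasma cells (adjusted p = 0.0015). Within the low set it was -6.63 points and in the nearer part of the window -6.02 points, neither called (adjusted p = 0.078 and 0.012). Gata4, a GATA factor, was called upstream at -18.5 points (adjusted p = 0.0051), but not without plasma cell 2 or 3 or naive B 2 or 3 (-14.0 to -17.8 points), and was at -6.09 points within the low set (adjusted p = 0.23). Tbx1, a T-box factor, was not called downstream (-9.46 points, adjusted p = 0.080) and depended on the setting. It was called downstream in the nearer part of the window (-26.9 points), within the low set (-24.4 points), in limma on unweighted means (-14.7 points), and with the replicate block or the library set as a term. Its upstream shore differed by -7.05 points, was not called, and was called without naive B 1 (-14.7 points).

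Among genes of the methylation machinery, 8 of 22 had shore CpGs. In plasma cells 8 of 60 CpGs (13.3%) were lower, where 19.7% of shore CpGs with a gene name were. Tet1 differed by -26.2 points in plasma cells over 6 downstream CpGs (adjusted p = 2.7e-06). Hells, a remodeller needed for methylation, differed by -14.4 points over 9 upstream CpGs (adjusted p = 7.1e-06). Dnmt1 differed by -11.1 points over 9 downstream CpGs (adjusted p = 0.00016). Those CpGs spanned chr9:20716419-20763223, around more than a single annotated start. Dnmt1 was not called within the low set (adjusted p = 0.029).

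Of shore CpGs with a gene name 19.7% were lower in plasma cells. Lower CpGs in plasma cells made up 14 of 66 (21.2%) in T and NK cell markers, near that share, and 2 of 31 (6.45%) in myeloid markers and 4 of 48 (8.33%) in erythroid and stem cell markers, below it. Zap70, a T cell kinase, differed by -16.9 points over 11 downstream CpGs (adjusted p = 8.7e-06). Fcgr1, a myeloid Fc receptor, differed by -22.2 points over 8 (adjusted p = 0.00094). Gata2, a stem cell factor, differed by -24.5 points over 6 (adjusted p = 0.0019). In each of these genes the CpGs lay around more than a single annotated start. Within the low set Fcgr1 was at -14.2 points and Gata2 at -10.7 points, neither called (adjusted p = 0.069 and 0.16), and Fcgr1 was not called without plasma cell 3 (adjusted p = 0.011). Methylation does not count cells of these lineages, and their part in the results was not tested.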

How the data were processed

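Per the labels' protocols, reduced representation bisulfite libraries were made with MspI from sorted spleen cells and read on a HiSeq2500; the submitters' processing notes name Bismark, Bowtie2 and the build mm9, without versions. The authors deposited counts of methylated and unmethylated reads at 911004 CpGs for each library, the level as a fraction, and the distance to the nearest start site; the authors' deposited table of differential CpGs gives an FDR under 0.01 and a change of at least 0.2 as a fraction, per the file headers.

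Libraries were grouped by GEO's labels, and the 9 libraries were each counted as a sample. CpGs with at least 10 reads in all 9 libraries were kept. Means over CpGs were compared with exact permutation tests over libraries. Single CpGs (356320), gene zones (22007) and genes with both shores (115) were tested with quasi-binomial logistic models, with the dispersion moderated by limma 3.58.1 in R 4.3.3 (1.26 for single CpGs, never under 1) and Benjamini-Hochberg adjustment over the whole table. A difference is between pooled levels or group means, in percentage points. Python 3.11.15, numpy 2.4.6, pandas 2.3.3 and scipy 1.17.1 were used, and the models were tested on simulated data. Promoter sequences came from RefSeq (GRCm38.p6), where 77.2% of 5527 gene identifiers matched.

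Named genes were the 6 largest falls per side and up to 3 rises per side in plasma cells against naive B cells, the 3 largest falls per side in the other comparisons, the 4 smallest p per direction of side by group, up to 3 genes of each list with most lower CpGs, and 14 genes of the program always; 3 genes named by this rule are not reported here. The members and lists were chosen with earlier results of these data known. Alternatives were other coverages, windows, weights, thresholds, library sets, tests and omitted libraries.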

Additional observations from a re-analysis of the deposited data

How the results depend on the processing

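The lower shore levels of plasmablasts and plasma cells against naive B cells, and of plasma cells against plasmablasts, kept their direction in all 168 values under other settings. The share of called CpGs and genes depended on the setting more than the levels did. Over 32 main results, 464 of 574 values under other settings were labelled the same. For a share or count this meant a similar size. For a difference it meant the same sign and the same side of the p threshold, whatever its size. Exact p from 3 against 3 libraries cannot pass that threshold, so there only a turn of sign changed the label. Leave-one-out ranges were 0.187 to 1.31% upstream and 0.273 to 1.29% downstream for CpGs lower in plasma cells against plasmablasts. For CpGs that were higher they were 0.0805 to 0.241% in plasmablasts and 0.0958 to 0.149% in plasma cells. For gene shores lower downstream in plasmablasts the range was 13.0 to 23.4%, for those higher 0.117 to 0.409%, and for those lower in plasma cells against plasmablasts 0 to 5.40% upstream and 0 to 7.92% downstream. Genes whose shores changed by different amounts numbered 13 to 24 in plasmablasts and 4 to 17 in plasma cells. The change of the side difference between plasma cells and plasmablasts lay within -0.152 and 0.0949 points when a library was left out, and was 0.352 points with 20 reads per library, 0.157 points in the nearer part of the window and 0.214 points with each gene shore weighted equally.

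With 20 reads per library, gene shores were lower in 18.3% upstream in plasmablasts, higher in 0% in plasma cells, and lower in plasma cells against plasmablasts in 2.29% upstream and 2.42% downstream; CpGs lower there upstream were 1.57%, and 1, 3 and 1 genes of 5 had shores that changed differently in plasmablasts, plasma cells, and plasma cells against plasmablasts. In that nearer part 13.3% of downstream gene shores were lower in plasmablasts and 0.629% upstream in plasma cells against plasmablasts. In the farther part 0.364% and 0.182% were higher in plasmablasts and plasma cells, and 0% upstream and 0.277% downstream were lower in plasma cells against plasmablasts. Within the low library set, with a lone naive B library assumed to vary like the others, CpGs lower in plasma cells were 11.0% upstream and 8.83% downstream and higher 0.0652%; gene shores were lower in 14.3% and 13.4% and higher in 0%. Within the high set, 0.0843% of CpGs and 0.468% of gene shores were higher in plasmablasts. With the library set as a term, CpGs lower in plasma cells were 11.6% upstream and 9.16% downstream, gene shores 28.7% and 26.3%; CpGs higher were 0.0728% in plasmablasts and 0.0613% in plasma cells, gene shores higher in plasmablasts 0.409%; in plasma cells against plasmablasts 0% of CpGs on either side, and 0% of upstream and 0.0880% of downstream gene shores, were lower.

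With a minimum of 10 points, 18.9% upstream and 13.4% downstream CpGs were lower and 0.410% higher in plasmablasts, and 34.3% lower upstream in plasma cells. With 30 points, 3.92% and 2.89% were lower and 0.0537% higher in plasmablasts, 10.8% and 8.57% lower and 0.0613% higher in plasma cells, and 0.426% and 0.540% lower in plasma cells against plasmablasts. Fisher's exact test of pooled reads gave 1.59% and 1.69% for the last comparison. A dispersion for each CpG, moderated toward a common value, was added after seeing the data. It gave 2.57% upstream and 1.91% downstream lower and 0.0192% higher in plasmablasts, and 0.0728% higher in plasma cells. In plasma cells against plasmablasts it gave 0% on both sides (at an unadjusted p under 0.05, 1647 and 2825). With at least 3 CpGs per gene shore, 0.232% were higher in plasma cells and 0.184% lower downstream in plasma cells against plasmablasts. With at least 10, 13.9% upstream and 7.93% downstream were lower in plasmablasts, 0% higher in plasma cells, and 0% lower upstream in plasma cells against plasmablasts. Unweighted means in limma gave 0.643% higher in plasmablasts, 4.01% upstream and 4.31% downstream lower in plasma cells against plasmablasts, and 36 and 2 genes with shores that changed differently in plasma cells against naive B cells and against plasmablasts.

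Deviations of same-numbered libraries of different groups had correlations of -0.0360 to 0.0259. Deviations at single CpGs include counting error, so these values cannot tell whether the numbers pair the samples. With the replicate number as a block, 0% of upstream gene shores were lower in plasma cells against plasmablasts, and no other share or count above moved, while among named gene shores Chd5 downstream lost its call (adjusted p = 0.011) and Tbx1 downstream gained one (0.0095). With that block and a dispersion for each CpG, added after seeing the data, 0% of CpGs were lower on either side and 0% higher in plasmablasts, 1.80% upstream and 1.63% downstream lower and 0% higher in plasma cells, and 0% lower on either side in plasma cells against plasmablasts. Of 45 named gene shores, 14 lost their call in plasma cells within the low set and 9 where the fit held a term for the set. The difference in plasma cells turned for Skil upstream (range -1.04 to 0.135 with a library left out; 0.135 points without naive B 3, 1.19 in the low set, 0.183 in limma), Gata2 upstream (range -1.76 to 1.31 with a library left out; 0.175 without plasma cell 2, 1.31 without naive B 3, 0.913 in the low set), Bcl6 downstream (0.142) and Tbx1 upstream (4.39, against -7.05 points as reported), both in the low set. The cause of these moves was not tested.

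Medians of 25 to 36 reads limit a single CpG in a single library. The groups of 3 libraries cannot give an exact permutation p under 0.1, and the p of a single CpG rests on a dispersion shared by all CpGs. The sparse cutting of MspI leaves CpG-poor shores unmeasured, and 41.5% of deposited shore CpGs had enough reads.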

Other observations

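Of the 39 shore CpGs higher in plasmablasts than in naive B cells, 7 lay near each other on chromosome 17 (mm9) without a gene name, a place picked after its values were seen. At the upstream CpG chr17:39979959, levels were 59.4%, 57.5% and 51.3% in plasmablasts and 25.9%, 68.2% and 56.0% in naive B cells. Naive B library 1 was low, and the other 2 naive B libraries overlapped the plasmablasts. At the downstream CpG chr17:39983209, levels were 56.0%, 60.9% and 54.3% in plasmablasts and 25.4%, 33.3% and 14.3% in naive B cells, without overlap. In plasma cells the levels at this CpG were 29.4%, 27.0% and 23.5%, within the range of the naive B libraries.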
